A study of Homo sapiens with 6 samples.

Results

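GDF15 and PMAIP1 are stress genes that were examined together in RNA sequencing of MDA-MB-231 cells, a human line derived from a triple-negative breast cancer. They are 2 of the 13707 complete genes in the deposited expression table, and each was found in 1 row by its gene name. Both were chosen on the comparison described here, because earlier results of these libraries had shown them lower in C than in K. Their levels in C and K are therefore given as a description, with no test, and tests are given only for other genes. There are 6 libraries, 3 titled C and 3 titled K, each numbered from 1 to 3. The study compared untreated cells with cells given colistimethate, a prodrug of the antibiotic colistin, at 20 µM. No label says which letter stands for the treated cells, so every difference is C relative to K. The labels name no genotype, passage or exposure time, and every library is labelled with the same cell line.

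GDF15 (growth differentiation factor 15) is a secreted protein of the TGF-beta superfamily. It is made as a precursor that proprotein convertases cut, and its circulating form acts in the hindbrain through the receptor GFRAL with the co-receptor RET. PMAIP1 encodes NOXA, a BH3-only protein of the BCL2 family that binds the survival protein MCL1 and so favours mitochondrial apoptosis. Both genes are known as targets of ATF4 and CHOP, the transcription factors of the integrated stress response, in which phosphorylation of eIF2 slows translation.

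The sequence upstream of each start is shown because both genes were lower in the same libraries, and the promoter is where shared letters would be looked for. Each line gives the 250 bases before the RefSeq start on GRCh38.p14, plus strand, at chr19:18385908-18386157 for GDF15 and chr18:59899746-59899995 for PMAIP1. Capitals mark the TATA box in GDF15 and the core of a cyclic AMP response element in PMAIP1.
GDF15: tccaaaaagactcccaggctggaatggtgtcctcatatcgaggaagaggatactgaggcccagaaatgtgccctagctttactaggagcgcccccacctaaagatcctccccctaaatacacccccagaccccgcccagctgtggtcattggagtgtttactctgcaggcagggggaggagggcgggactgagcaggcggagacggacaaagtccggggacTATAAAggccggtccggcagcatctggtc
PMAIP1: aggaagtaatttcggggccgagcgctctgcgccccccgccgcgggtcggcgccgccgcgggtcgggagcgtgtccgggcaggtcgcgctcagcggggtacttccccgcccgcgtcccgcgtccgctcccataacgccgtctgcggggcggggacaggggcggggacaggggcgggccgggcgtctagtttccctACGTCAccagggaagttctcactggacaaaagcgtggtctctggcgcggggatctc

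The GDF15 window held 1 TATAAA, whose first base lies at -29 when the base just before the start is -1. A TATAAA was found in 10.7% of 35116 promoter windows of the same length. The PMAIP1 window held no TATAAA and 1 TGACGT, the core of a cyclic AMP response element, read on the opposite strand with its leftmost base at -56. That core was found in 7.1% of windows, and the full element TGACGTCA, found in 1.65%, was in neither. TGATGNAA, the C/EBP-ATF response element to which ATF4 binds, was in neither window and in 3.14% of all windows. GGGCGG, the GC box, matched 2 times in GDF15 and 4 times in PMAIP1, and 42.6% of windows held at least 1. CCAAT matched 1 time in GDF15 and was absent from the PMAIP1 window, against 32% of windows. The PMAIP1 window was the richer in G and C, at 72.8% with 36 CG pairs, against 58.4% and 9 in GDF15 and medians of 58% and 11 over all windows. Of these motifs, the GC box was the only one in both windows. In the deposited table GDF15 spans 18374731 to 18389176 on chromosome 19, so its listed model begins upstream of the RefSeq start. PMAIP1 spans 59899948 to 59904306 on chromosome 18 and begins inside the window shown.

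GDF15 was lower in every C library than in every K library. C1, C2 and C3 held 597, 594 and 618 GDF15 reads, while K1, K2 and K3 held 997, 1060 and 912. Scaled by normalised library size to CPM, a read count relative to the depth of the library, its level was 18.0, 17.7 and 19.1 CPM in C1 to C3 and 31.7, 29.5 and 28.8 CPM in K1 to K3. The letters did not overlap, and the lowest K library stood at 1.51 times the highest C library. The mean level was 18.3 ± 0.718 CPM in C and 30.0 ± 1.52 CPM in K (SD, n = 3 each), with K at 1.65 times C. The log2 fold change was -0.72 with a standard error (SE) of 0.062.

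PMAIP1 was also lower in every C library, by a smaller factor. C1, C2 and C3 held 2489, 2625 and 2303 PMAIP1 reads, while K1, K2 and K3 held 3081, 3680 and 3300. Its level was 75.2, 78.2 and 71.1 CPM in C1 to C3 and 98.1, 102.6 and 104.3 CPM in K1 to K3. The letters did not overlap, and the nearest libraries were C2 and K1. The mean level was 74.8 ± 3.57 CPM in C and 101.7 ± 3.20 CPM in K, with K at 1.36 times C. The log2 fold change was -0.44 (SE 0.048). With an offset for GC content and transcript length it was -0.31, while that of GDF15 was -0.70. The longest transcript of PMAIP1 is 37.2% G and C and that of GDF15 62.9%, against a median of 48.2% over tested genes.

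Non-overlap of the letters in that direction was frequent in these data: 17.7% of the 9057 genes tested had every C library below every K library. Since the pair was chosen on this comparison, nothing is read from that share. The drop in GDF15 was matched or passed by 215 tested genes, or 2.37%, and that in PMAIP1 by 578, or 6.38%. Among the 4529 genes at or above the median expression, 22 fell at least as far as GDF15 and 68 at least as far as PMAIP1. GDF15 itself lay under that median, at an average of 4.60 log2 CPM, and PMAIP1 above it, at 6.46.

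**Figure D1:**
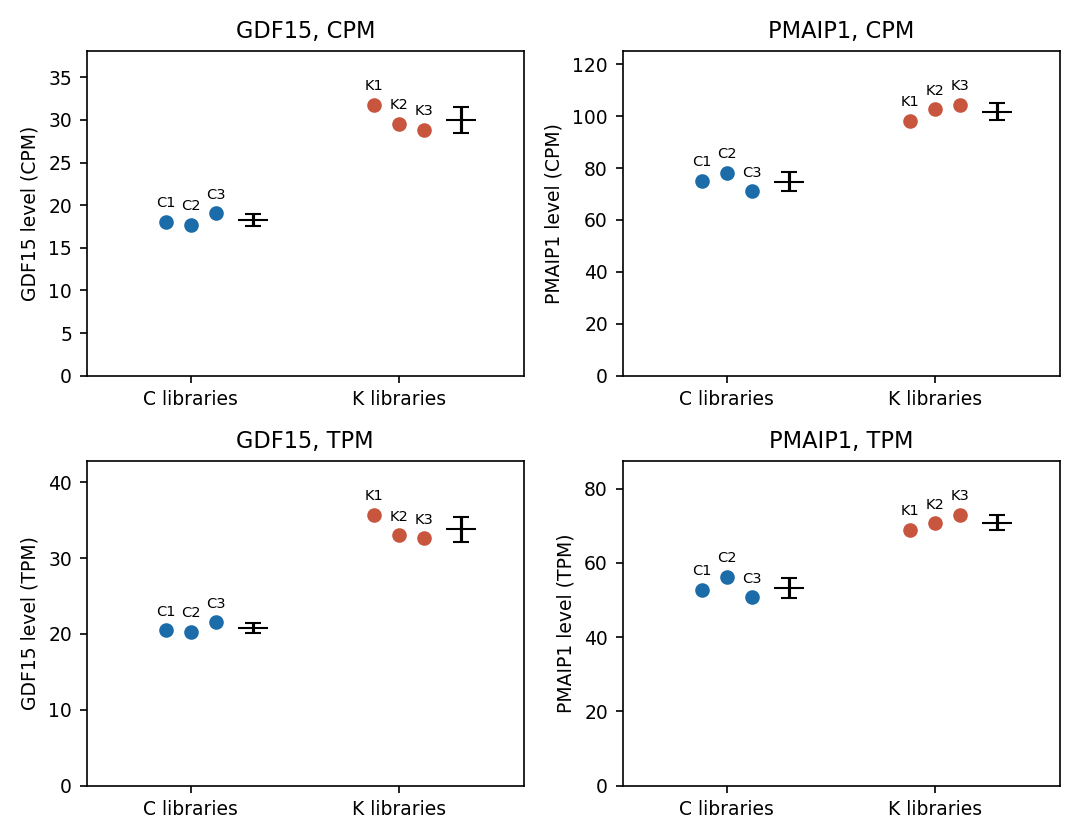
Levels of GDF15 (left) and PMAIP1 (right) in CPM (top) and TPM (bottom), with 1 point per library and the mean with its SD over 3 libraries as a bar beside the points. In all panels the 3 C libraries lie below the 3 K libraries, where GDF15 averages 18.3 CPM and 30.0 CPM respectively.

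**Figure D2:**
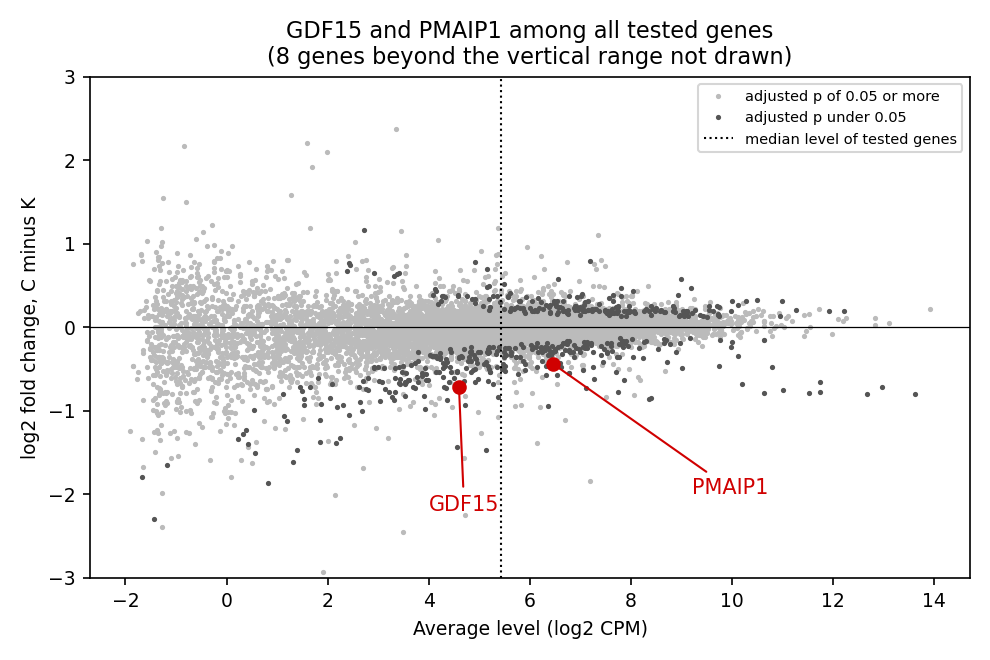
Log2 fold change, C minus K, against average log2 CPM for the tested genes, with genes past an adjusted p of 0.05 in dark grey and the median level as a dotted line; 8 genes beyond the vertical range are not drawn. GDF15 lies left of the median level at -0.72 and PMAIP1 right of it at -0.44, both among the genes lower in C.

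Per transcript length, PMAIP1 was the more abundant of the pair in every library. The length-scaled values (TPM) of GDF15 were 20.5, 20.3 and 21.5 in C1 to C3 and 35.7, 33.0 and 32.6 in K1 to K3. TPM of PMAIP1 were 52.8, 56.3 and 50.7 in C1 to C3 and 69.0, 70.7 and 73.0 in K1 to K3. Because GDF15 differed more between the letters, the TPM ratio of PMAIP1 to GDF15 was higher in C, at 2.58, 2.77 and 2.36, than in K, at 1.93, 2.14 and 2.24. These ratios did not overlap between the letters, and their means were 2.57 ± 0.209 in C and 2.1 ± 0.156 in K. By mean TPM, 21.8% of tested genes stood at or above PMAIP1 and 41% at or above GDF15.

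Within a letter the pair did not follow the same order. GDF15 was highest in K1 and lowest in K3, whereas PMAIP1 was highest in K3 and lowest in K1. In C, GDF15 was highest in C3, where PMAIP1 was lowest. These steps within a letter were small. The coefficient of variation of GDF15 CPM was 3.93% in C and 5.06% in K, and counting reads alone gives 4.07% and 3.18%. For PMAIP1 it was 4.78% in C and 3.15% in K, and counting alone gives 2.01% and 1.73%. Of listed counts from 1 to 20, 66.3% were even, against 50.1% of counts over 500. If both reads of a pair were counted, counting error rises to 5.76% and 4.5% for GDF15 and to 2.84% and 2.44% for PMAIP1, so for GDF15 the spread within a letter was close to counting error. Neither gene shared a 75-base exonic window with another gene or overlapped another gene's exons in GENCODE release 29.

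The libraries held 31438065 to 35946691 reads over the listed genes, in overlapping ranges for the letters. The design text calls them repeated experiments but does not say whether each library had its own culture, so p-values measure the spread between libraries, which may be technical. Of all tested genes, 508 (5.61%) passed edgeR's quasi-likelihood test at 0.05 after Benjamini-Hochberg adjustment, 199 (2.2%) higher and 309 (3.41%) lower in C. The split was 315 higher and 253 lower with the GC and length offset, and 526 and 513 with DESeq2. Without C1 the count fell to 77, without C2 to 116, without C3 to 109, without K1 to 117 and without K3 to 99, and it was 533 without K2. Markers known in MDA-MB-231 were present: summed CPM over the 6 listed of 7 (CD44, EGFR, AXL, CAV1, MSN and S100A4) was 7057 to 7433 in C and 6405 to 6710 in K. Of these, AXL passed as higher in C and CAV1 as lower in C, so the sum does not describe each marker. Of 5 markers known as low or absent in this line, 2 were listed. CDH1, the epithelial cadherin, had 0 reads in all libraries, and EPCAM was at 5.28 to 7.13 CPM. VIM and the receptor genes ESR1, PGR and ERBB2 were not analysed here. Markers of blood (2 of 4 listed) and keratinocytes (2 of 3) had 0 reads. A count of 0 allows up to 0.0836 to 0.0955 CPM, by counting error alone. Fibroblast markers (2 of 5 listed) summed to 7.63 to 9.03 CPM in C and 8.47 to 8.79 CPM in K, nearly all COL1A1, while endothelial markers (2 of 3) summed to 2.8 to 4.62 and 3.85 to 4.71 CPM, all from PECAM1, with CDH5 at 0 reads.

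Genes for the processing and sensing of GDF15 gave no call in C against K, where 5.61% of all tested genes were called. Of 7 enzymes and receptors in that list, 4 were in the table and 3 had enough reads to be tested. With 3 genes, 0 calls cannot be told from that share. FURIN, a convertase of the secretory pathway, averaged 123 ± 11.4 CPM over the C libraries and 109 ± 2.76 CPM over the K libraries, which overlapped (log2 fold change 0.17, SE 0.070, adjusted p = 0.189 in edgeR's test). In edgeR's test 0 of these 3 passed, although MBTPS1 and PCSK7, proteases named after their values were seen, had an unadjusted p under 0.05, and 0 passed with DESeq2 or limma. GFRAL, the receptor, had 0 reads in all 6 libraries. Other ligands of the superfamily were mixed, with a median log2 fold change of -0.20 over 11 tested genes of the 24 in the list, against -0.0044 over all tested genes. That median is the value of GDF9 (SE 0.36), named after its values were seen, which had few reads. GDF9 averaged 0.273 CPM over C and 0.313 CPM over K. Of the 11, 6 had a negative value, so no direction of the ligands is read from the median. TGFB2, a growth factor, was the only one of the 11 to pass in edgeR's test, against 5.61% of tested genes. TGFB2 fell in C, at 37.2, 37.0 and 34.9 CPM in C1 to C3 and 53.6, 50.6 and 49.8 CPM in K1 to K3. Its letters did not overlap, and its log2 fold change was -0.50 (SE 0.052, adjusted p = 0.00803). DESeq2 also called BMP4 (log2 fold change -0.57), BMP6 (0.58) and GDF11 (0.26), named after their values were seen, whose adjusted p in edgeR's test ran from 0.0535 to 0.164. TGFB2 shares 24.8% of its windows with the overlapping model TGFB2-OT1.

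Among the BCL2 family, to which NOXA belongs, 1 of 8 tested members (16 in the list) passed in edgeR's test, and it fell in C. Over all tested genes 5.61% passed and 3.41% fell, so nothing on the family is read from 1 call among 8. The call was BMF. BMF is another BH3-only protein, at 0.725, 0.685 and 0.679 CPM in C1 to C3 and 1.69, 1.81 and 1.58 CPM in K1 to K3. These low levels did not overlap (log2 fold change -1.28, SE 0.16, adjusted p = 0.016), and the call was lost without C1, C2, C3, K1 or K3 (adjusted p from 0.0591 to 0.0674). BMF overlaps an antisense gene over 5.56% of its windows. MCL1, the partner of NOXA, did not pass, with C libraries averaging 618 ± 15 CPM and K libraries 593 ± 7.04 CPM (log2 fold change 0.06, SE 0.029, adjusted p = 0.235). BCL2L1, which encodes the survival protein BCL-XL, did not pass either, at 853 ± 68.8 and 766 ± 22.6 CPM (adjusted p = 0.163), and it shares 34.8% of its windows with the antisense gene ABALON. BBC3, which encodes the BH3-only protein PUMA, averaged 11.9 ± 0.479 CPM over C and 12.4 ± 0.590 CPM over K, and the libraries overlapped (log2 fold change -0.05, adjusted p = 0.675). BCL2L2, which encodes the survival protein BCL-w and was named after its values were seen, split within C, with 67.4 CPM in C2 against 21.1 and 19.2 in C1 and C3 and 66.6 to 70.8 in K. Over all 6 libraries BCL2L2 did not pass in edgeR's test (log2 fold change -0.94, adjusted p = 0.269). Without C2 it was lower in C (log2 fold change -1.77, adjusted p = 0.00647). That fit is quoted because C2 stood apart, so nothing is read from its p-value. The mean TPM of BCL2L2 lay closer together than its CPM, at 26.5 in C and 31.5 in K. The median over the 8 members was 0.0077. BAX and BAK1, the pore-forming members, were not analysed here.

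Genes for the turnover of MCL1 and NOXA proteins had a median log2 fold change of 0.10 over 6 tested genes of 9. In edgeR's test 0 of 6 passed, near the 5.61% called over all tested genes. Of the 6, 1 had an unadjusted p under 0.05, 1 passed with DESeq2 and 0 with limma. That 1 was BTRC, a substrate adaptor of a ubiquitin ligase, named after its values were seen, with C libraries averaging 69.3 ± 0.202 CPM and K libraries 62.4 ± 1.56 CPM (log2 fold change 0.15, edgeR adjusted p = 0.0676).

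Of 30 genes in the DNA damage response list 16 were tested, and their median log2 fold change was -0.04, with values from -0.22 to 0.23. In edgeR's test 1 of 16 rose in C and 0 fell, a number of calls near the 5.61% called over all tested genes. The rise was ZMAT3, an RNA-binding protein, averaging 60.2 ± 1.49 CPM over C and 51.5 ± 0.666 CPM over K (log2 fold change 0.23, SE 0.040, adjusted p = 0.0332), and no fit with 1 library fewer kept the call (adjusted p from 0.0539 to 0.109). CDKN1A, which encodes the cell cycle inhibitor p21, was at 85.2, 84.0 and 87.8 CPM in C1 to C3 and at 142, 61.1 and 60.1 CPM in K1 to K3. K1 thus stood above all C libraries, and K2 and K3 below them. Its log2 fold change was -0.03 (SE 0.34, adjusted p = 0.961 in edgeR's test), but without K1 CDKN1A was higher in C by 0.50 (adjusted p = 0.00947). The fit without K1 is singled out for the outlying value of K1, so its p-value is no separate evidence. Leaving out any other library gave no call for CDKN1A. GDF15 without K1 was still lower in C, with a log2 fold change of -0.68, and PMAIP1 with -0.47. MDM2 was not analysed here.

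Of 38 targets of the integrated stress response 24 were tested, and in edgeR's test 5 rose in C and 1 fell, while the others did not pass. Over all tested genes 2.2% rose and 3.41% fell. The median log2 fold change of the list was 0.17, against -0.0044 over all tested genes. ASNS, which makes asparagine, was at 44.7, 42.9 and 44.4 CPM in C1 to C3 and 27.0, 26.6 and 27.8 CPM in K1 to K3. The letters did not overlap (log2 fold change 0.70, SE 0.046, adjusted p = 0.00181). ASNS has 38.7% of its windows in common with other gene models, among them the overlapping AC079781.5. GPT2, a mitochondrial aminotransferase (0.30, SE 0.048, adjusted p = 0.0277), PHGDH, which opens serine synthesis (0.31, SE 0.051, adjusted p = 0.0287), and PSAT1, the next enzyme of that route (0.31, SE 0.061, adjusted p = 0.0423), rose less. PPP1R15A, which directs the dephosphorylation of eIF2 and falls outside the naming rule, rose by 0.20 (SE 0.040, adjusted p = 0.0433). The calls of GPT2, PHGDH and PSAT1 were lost without C1, C2, C3, K1 or K3 (adjusted p from 0.0634 to 0.13), and that of PPP1R15A without any library but K1 (up to 0.139).

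DDIT4, an inhibitor of mTOR signalling, was the 1 target that fell. It was at 87.1, 86.7 and 93.8 CPM in C1 to C3 and 119, 143 and 130 CPM in K1 to K3, with no overlap (log2 fold change -0.55, SE 0.073, adjusted p = 0.0175). DDIT4 shares 34% of its windows with the antisense gene DDIT4-AS1, and its call was lost without K3 or any of the C libraries (adjusted p from 0.0511 to 0.0753). TRIB3, a pseudokinase induced by ATF4 and CHOP, did not pass, with C libraries averaging 35.7 ± 0.903 CPM and K libraries 27.6 ± 6.82 CPM (log2 fold change 0.37, adjusted p = 0.239). Without C1, C2, C3 or K3, 1 gene of the list passed, and it rose in C.

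Of 20 transcription factors known to act on the pair 8 were tested, and 2 rose in C and 0 fell in edgeR's test, with a median log2 fold change of 0.21. Over all tested genes 2.2% rose and 3.41% fell, so 0 lower calls among 8 genes is near the background. All 8 log2 fold changes were positive, from 0.01 to 0.65, in a list chosen with earlier results of these data known. ATF4 averaged 429 ± 9.98 CPM over C and 418 ± 13.3 CPM over K, with overlap (log2 fold change 0.04, SE 0.035, adjusted p = 0.533). DDIT3, which encodes CHOP, was at 27.6, 17.8 and 20.7 CPM in C1 to C3 and 15.7, 13.8 and 14.6 CPM in K1 to K3, and did not pass in edgeR's test (0.59, SE 0.16, adjusted p = 0.0877), though it did with DESeq2. Its exons overlap MARS on the other strand, and 16.2% of its windows are shared. EGR1, an immediate-early zinc finger factor, rose in C, averaging 12.9 ± 1.3 CPM over C and 8.19 ± 0.908 CPM over K (log2 fold change 0.65, SE 0.12, adjusted p = 0.0347); no fit with a library left out kept it (adjusted p from 0.0579 to 0.116). E2F1, a factor of S-phase entry, rose by 0.21 (SE 0.037, adjusted p = 0.0316) and was lost without C1, C2, C3, K1 or K3 (adjusted p from 0.0858 to 0.113). ATF3 was not analysed here. Sensors and translation factors of the integrated stress response, 11 tested of 17 in the list, had a median log2 fold change of 0.04. In edgeR's test 0 of 11 passed, near the 5.61% called over all tested genes. Of the 11, 3 had an unadjusted p under 0.05, 1 passed with DESeq2 and 0 with limma. The DESeq2 call was EIF2B4, a subunit of the factor that recharges eIF2, named after its values were seen, with C libraries averaging 63.4 ± 1.41 CPM and K libraries 55.3 ± 2.27 CPM (log2 fold change 0.20, edgeR adjusted p = 0.0601).

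**Figure D3:**
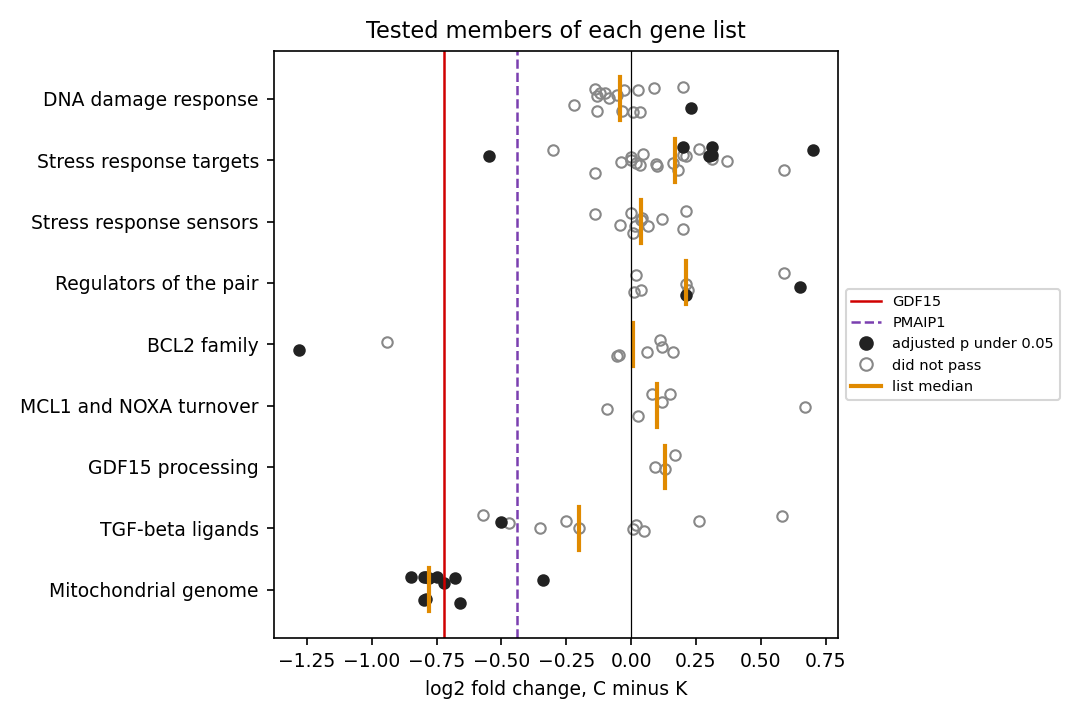
Log2 fold change, C minus K, of each tested member of 9 gene lists, 1 point per gene, filled where the adjusted p was under 0.05, with the list median as a vertical bar and GDF15 and PMAIP1 as vertical lines. Members of the DNA damage response list lie between -0.22 and 0.23, while the mitochondrial genome transcripts have a median of -0.78, near the GDF15 line, and reach from -0.85 to -0.34.

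Transcripts of the mitochondrial genome were lower in C together with the pair. All 11 tested genes, of 13 in the list, passed in edgeR's test as lower in C, against 3.41% of all tested genes. The list was chosen with earlier results of these data known. Its genes lie on 1 small genome, so the 11 calls are not 11 independent results. Their log2 fold changes ran from -0.85 to -0.34, with a median of -0.78. MT-ND6 and MT-ND4, subunits of complex I, fell by 0.85 and 0.80 on the log2 scale (adjusted p = 0.00171 and 0.00281), MT-CO1, of complex IV, by 0.80 (adjusted p = 0.00225), MT-CYB, of complex III, by 0.78 (adjusted p = 0.00277) and MT-ATP6, of ATP synthase, by 0.68 (adjusted p = 0.00165). Their share of listed reads was 3.11% to 3.26% in C and 4.99% to 5.85% in K, so the letters did not overlap. Within a letter the order of the share and that of GDF15 differed. The spread of GDF15 there was close to counting error, so this order cannot show whether they are linked. K1 had the most GDF15 and the largest share, but K2, second in GDF15, had the lowest share of the K libraries, and C3, highest in GDF15 among the C libraries, had the lowest share of all. With these genes removed, GDF15 and PMAIP1 had log2 fold changes of -0.72 and -0.44, the same as with them. Less mitochondrial RNA per cell, fewer cells rich in it and a technical difference between the libraries cannot be told apart in these bulk RNA data. What lies behind the share was not tested, nor was its part in the levels of the pair.

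The genes whose levels followed GDF15 most closely were 3 mitochondrial transcripts and 2 genes of secreted proteins. Likeness was taken as the root mean square difference over the 6 libraries between log2 CPM values centred on each gene's own mean, with candidates limited to genes whose average level reached the median. The profiles include the contrast between the letters, and the genes share the same libraries. The 5 nearest to GDF15 were MT-ATP6 at 0.047, TIMP3, an inhibitor of matrix metalloproteinases, at 0.056, CSF1, a macrophage growth factor, at 0.06, MT-CO2 at 0.062 and MT-ND1 at 0.073. TIMP3 averaged 182 ± 4.84 CPM over C and 281 ± 2.79 CPM over K, and CSF1 104 ± 3.71 and 172 ± 9.36 CPM. MT-ATP6 and MT-CO2 share 28% and 10.5% of their windows with copies listed as separate pseudogenes, MT-ND1 16.3% and MT-ND6 7.1%. MT-CO1 shares 36.6% with such a copy and with the microRNA gene MIR6723.

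The 5 nearest to PMAIP1 were PMP22, a peripheral myelin protein, at 0.046, FAM20C, a kinase of secreted proteins, at 0.047, SLC37A2, a sugar phosphate transporter, at 0.05, the cytokine IL1B at 0.052 and the caveolar protein CAV1 at 0.053. Their log2 fold changes were -0.43, -0.46, -0.51, -0.41 and -0.37. No gene was among the nearest of both. GDF15 and PMAIP1 differed from each other by 0.17, and 36 genes lay nearer to GDF15 and 479 nearer to PMAIP1 than the other member did.

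**Figure D4:**
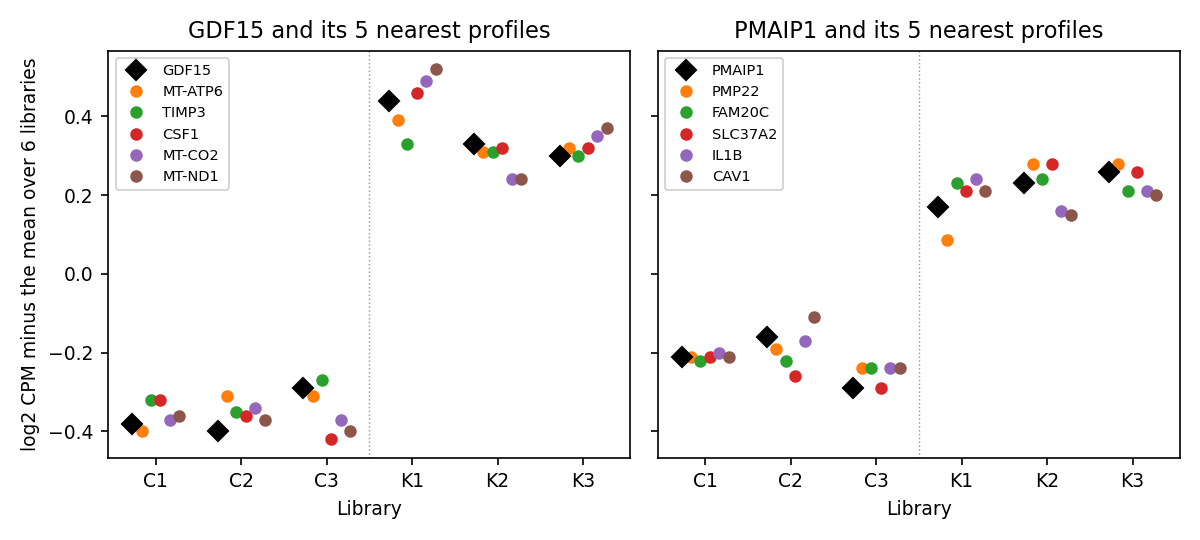
Log2 CPM minus the mean over 6 libraries, by library, for GDF15 (left) and PMAIP1 (right) as black diamonds and their 5 nearest genes as coloured circles. Log2 fold changes run from -0.75 to -0.63 for the genes near GDF15 and from -0.51 to -0.37 for those near PMAIP1. The choice by profile, which includes the contrast between the letters, places them near the value of each member.

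Genes beside the pair on the chromosome were looked up after the data were seen. None passed as lower in C, where 3.41% of all tested genes did. Within 250 kb of GDF15, 14 other genes were listed and 10 tested. In edgeR's test 1 passed, ELL, a transcription elongation factor, higher in C (log2 fold change 0.22, adjusted p = 0.0485), a call that each left-out library ended (adjusted p from 0.0536 to 0.135). The lowest value among the 10 was -0.05, of JUND. Within 250 kb of PMAIP1, 1 other gene was listed and 0 were tested.

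**Figure D5:**
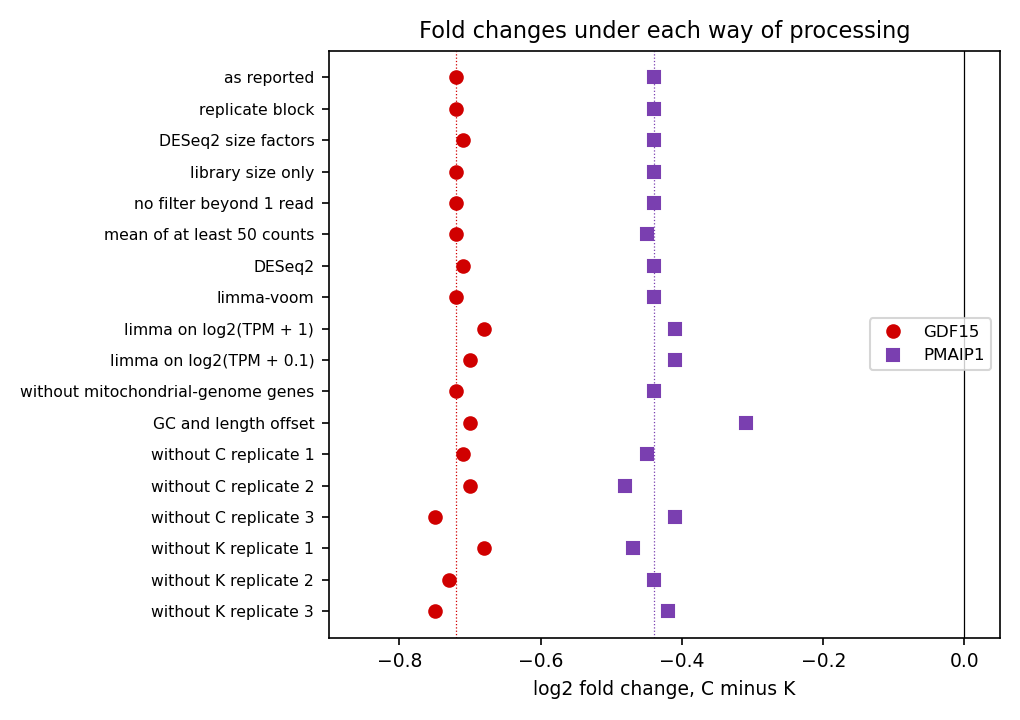
Log2 fold change, C minus K, of GDF15 (circles) and PMAIP1 (squares) as reported and under each alternative way of processing, with dotted lines at the reported values. GDF15 ranges from -0.75 to -0.68 and PMAIP1 from -0.48 to -0.31, the last with the offset for GC content and length.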

How the data were processed

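Per the labels' protocols, total RNA from MDA-MB-231 cells was isolated with a Trizol reagent and 6 mRNA libraries were built with a YEASEN kit. The authors deposited 1 table with counts, TPM and FPKM per gene and library, per the file headers; FPKM entered no result. HISAT2 2.1.0, StringTie 1.3.3b, Trimmomatic, FastQC 0.11.2 and the build GRCh38 appear in the submitters' processing notes. Which tool counted reads, and whether by strand, is not given in the sources used here, so antisense overlaps are uncertain. The table held 13707 complete genes and 1 incomplete row, and its TPM summed to 67.1% to 67.9% of the full total, so some expressed genes were not analysed here.

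Deposited counts were tested in edgeR 4.0.16 (R 4.3.3) across all genes: filterByExpr (minimum count 10, minimum total 15; 9057 genes), TMM scaling, quasi-likelihood test of C against K with no covariate, Benjamini-Hochberg adjustment, threshold 0.05. SE is the fold change divided by the square root of F. CPM use TMM-scaled totals. Alternatives used DESeq2 1.42.0 and limma 3.58.1 on voom values and on log2(TPM + 1) or log2(TPM + 0.1) for genes with a mean TPM of at least 1. The edgeR steps were tested on simulated data. No 2 libraries agreed within sampling noise (chi-square per degree of freedom at least 23.2). Same-numbered libraries did not deviate together (correlations -0.0891, 0.0323 and -0.00432).

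GDF15, PMAIP1 and the 9 gene lists were chosen with earlier results of these data known. Named genes were the pair, up to 5 called members per list by smallest p, a fixed set of partners and the 5 nearest profiles of each. Results on 1 gene are not reported here. List symbols were matched by gene name or by current and older symbols. Promoters are RefSeq's, on GRCh38.p14. Shared windows are 75-base stretches of GENCODE release 29 transcripts found in another gene.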

Additional observations from a re-analysis of the deposited data

How the results depend on the processing

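GDF15 and PMAIP1 were lower in C under every alternative run. Leaving out each library in turn gave log2 fold changes from -0.75 to -0.68 for GDF15 and from -0.48 to -0.41 for PMAIP1. The other alternatives gave -0.72 to -0.68 for GDF15 and -0.45 to -0.41 for PMAIP1, except -0.31 for PMAIP1 with the GC and length offset, whose cause was not tested. Counts depended more on the processing. Over all tested genes 508 were called, against totals of 25 with the replicate block, 279 with limma on log2(TPM + 1), 1039 with DESeq2 and 77 to 533 with a library left out. The replicate block used the number in the title, which does not pair the libraries; under it DNA damage response genes had 0 calls, stress response targets 1, the BCL2 family 0, TGF-beta ligands 0, regulators 0, and GDF15 and PMAIP1 had -0.72 and -0.44. Limma on log2(TPM + 1) gave 0 calls for DNA damage response genes and 0 for the BCL2 family, where BMF was under its filter, as it was with a mean of at least 50 counts (0 calls). DESeq2 called 1 sensor or translation factor, 1 turnover gene and 4 TGF-beta ligands; those ligands had 2 calls with the GC and length offset and 2 with a mean of at least 50 counts. With a library left out, calls ranged from 0 to 1 for DNA damage response genes, 1 to 5 for stress response targets, 0 to 1 for the BCL2 family, 1 to 2 for TGF-beta ligands, 0 to 1 for regulators and 10 to 11 for mitochondrial transcripts. Without mitochondrial-genome genes the last list gave no value. At 594 to 1060 reads, the spread of GDF15 between libraries of a letter is close to counting error.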
